A study of Bos taurus with 2 samples.

Results

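Nitric oxide (NO) synthases and the enzymes that supply or spend their substrate arginine were followed in the fetal *longissimus thoracis* (LT) muscle of Japanese Black cattle. The 10 genes were chosen by name. They are the synthases *NOS1*, *NOS2* and *NOS3*, the methylarginine-degrading enzymes *DDAH1* and *DDAH2*, the arginine-making enzymes *ASS1* and *ASL*, the arginase *ARG2*, and *GUCY1A1* and *GUCY1B1*, which encode the subunits of the NO receptor. Probes were assigned to a gene when the accession listed with the probe belonged to it. This gave 24 of the 43652 probes on the array for 9 of the 10 genes, and no accession matched *NOS1*. A probe counts as detected when the scanner software marked it as well above background, and 21 of the 24 probes were so on both arrays. The other 3, all of *NOS2*, were so on neither.

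Dams were fed 120% (high-nutrition, HN) or 60% (low-nutrition, LN) of their requirement, before conception and throughout gestation. The fetuses, sired by 1 bull with semen sorted for males, were taken by cesarean section 8.5 months after conception (day 260 ± 8.3). RNA of whole LT muscle was pooled from 4 fetuses in each group, those with the highest bodyweight (BW) for HN and those with the lowest BW for LN, and each pool was read on 1 one-color array. Diet and the choice of fetuses by BW cannot be told apart, and no dam received exactly the requirement. With 1 array per pool there is no replicate check and no test between the groups. All differences below are LN against HN.

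NO synthases turn arginine into NO and citrulline. NOS1 is held at the membrane of muscle fibers by syntrophin, NOS2 is the inducible form that immune and other cells make on stimulation, and NOS3 is the endothelial form that relaxes vessels. Methylarginines released from proteins inhibit the synthases until DDAH enzymes break them down. ASS1 and ASL rebuild arginine from citrulline, whereas the mitochondrial arginase ARG2 splits arginine into ornithine and urea. NO binds to soluble guanylate cyclase, a dimer of the GUCY1A1 and GUCY1B1 proteins, which then makes cyclic GMP (cGMP).

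PCR primers for both measured synthases are shown because they were designed on the transcripts that the array probes are listed under, NM_001076799 for *NOS2* (5 probes) and NM_181037 for *NOS3* (2 probes). They are written 5′ to 3′ in lower case, with no part marked. Where they lie relative to the probes was not analysed here, since no probe sequences were used.
NOS2 forward: ggaggactatttcttccagctcaa
NOS2 reverse: tcacctcatagggaaatacagcac
NOS3 forward: gagcatcacctacgacactctgtg
NOS3 reverse: ctcttgatggagctgtagtactgg
Each primer is 24 bases long. G and C made up 45.8% of both *NOS2* primers, and 54.2% and 50% of the *NOS3* primers.

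Both measured synthases were lower in the LN pool, and both enzymes that make arginine were higher. The log2 LN/HN of a gene, the mean over its detected probes after quantile normalization, was -0.99 for *NOS2* and -0.50 for *NOS3*, against 0.39 for *ASL* and 0.25 for *ASS1*. *ARG2* (0.15), *DDAH1* (0.19), *GUCY1A1* (0.10), *GUCY1B1* (0.03) and *DDAH2* (-0.08) lay closer to 0 than the threshold. This threshold was a log2 LN/HN of 0.32 in either direction, a ratio of 5 to 4, and it is the one with which the study chose genes for its pathway tables. Past it were 2 of the 9 genes on the lower side (*NOS2* and *NOS3*) and 1 on the higher side (*ASL*). Of all 19554 genes with a value, accessions without a symbol included, 9.11% were past it on the lower side and 8.85% on the higher side. Scaling each array by its 75th percentile instead of by quantiles made these shares 13.6% and 6.0%. Over all 11 other settings they ran from 2.0% to 16.0% on the lower side and from 1.62% to 13.2% on the higher side, lowest after the normexp background correction, and each setting's member counts are to be read against its own shares. Of the 21 detected member probes, 4 were past it on the lower side and 3 on the higher side, against 9.44% and 9.11% of all 31986 probes with a value. The median log2 LN/HN was 0.10 over the 9 genes and -0.0033 over all genes, so the measured members did not move to one side as a group. None of the 9 was past 2-fold (a log2 LN/HN of 1 in either direction), against 0.286% of all genes on the lower and 0.711% on the higher side. *NOS2* was close to 2-fold and past it under 4 of the 11 other settings, at -1.06 with the 75th percentile, -1.0 with cyclic loess, -1.02 without normalization and -1.21 in the deposited normalized values. Of the 21 probes, 1 was past 2-fold lower and none past 2-fold higher, against 0.313% and 0.753% of all probes.

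**Figure D1:**
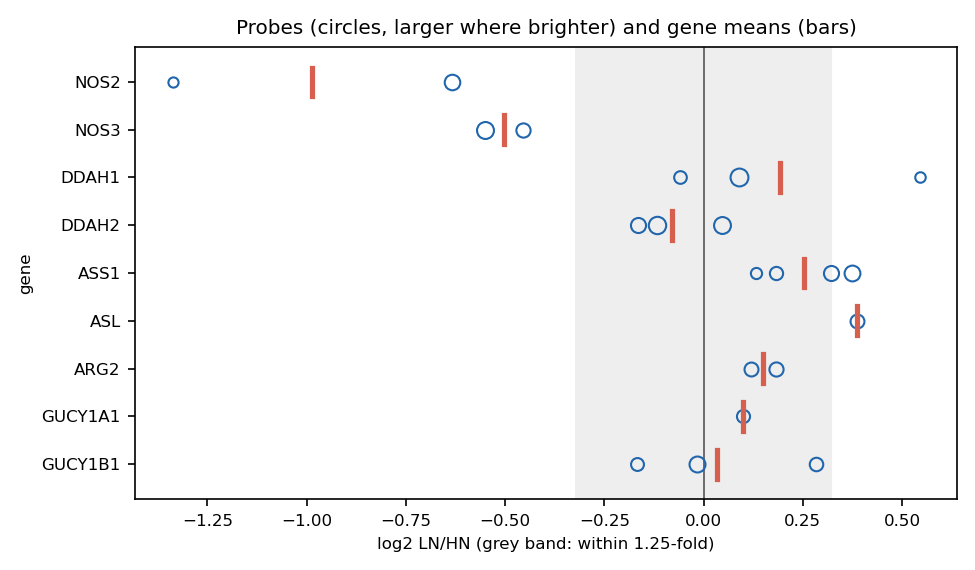
Log2 LN/HN of the detected probes (circles, larger where the mean signal of both pools was higher) and of each gene (bars, mean over its probes), with the grey band marking values within 0.32 of 0. All probes of *NOS2* and *NOS3* lie left of the band, those of *ASS1*, *ASL* and *ARG2* lie right of 0, and those of *DDAH1*, *DDAH2* and *GUCY1B1* lie on both sides of 0.

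The precision of a single spot was taken from 42 probes printed in several spots. The SD of the log2 ratio of their spots was 0.085, so that 95% of repeated spots would lie within 0.17 on the log2 scale, a ratio of 1.12. This covers spots printed on the same arrays, not differences between arrays or between fetuses. The scanner software also estimates an error for each spot. Combined for HN and LN, that error of log2 LN/HN was larger, at least 0.20 for each detected member probe. It was 0.34 for the dimmer detected probe of *NOS2*. Of the 21 detected member probes, 4 were lower and 7 higher by more than 0.17, against 21.5% of all probes lower and 21.1% higher. All 4 lower probes belonged to *NOS2* and *NOS3*. Of the 7 higher probes, 5 belonged to *ASS1*, *ASL* and *ARG2*, 1 to *DDAH1* and 1 to *GUCY1B1*. The lowest log2 signal of the 42 repeated probes was 4.12 in HN. A counted probe of *DDAH1* had 3.82 in HN and a counted probe of *NOS2* had 3.11 in LN, so the range was not measured for such dim signals. Dim probes varied more. Past the threshold of 0.32 in either direction were 42.9% of probes with a mean log2 signal below 4, 26.3% between 4 and 6, 13.6% between 6 and 8, 8.75% between 8 and 10 and 7.0% between 10 and 12.

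*NOS2*, the inducible synthase, had 5 probes, of which 2 were detected. The probe A_73_111433 had an intensity of 596 ± 59.6 in HN and 394 ± 39.4 in LN, where the errors are the estimates of the scanner software for 1 spot. After normalization its log2 signal was 9.24 and 8.61, a log2 LN/HN of -0.63 or 1.55-fold lower. Among the 6171 probes with a mean log2 signal of 8 to 10, as this one, the SD of log2 LN/HN was 0.20. The probe A_73_P051016 had an intensity of 22.3 ± 2.56 in HN and 8.18 ± 1.71 in LN. Its log2 signal was 4.45 and 3.11, a log2 LN/HN of -1.34 or 2.53-fold lower, the only member probe past 2-fold. With a mean log2 signal below 4, it lies where the SD was 0.42 over 3201 probes.

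The 3 other probes of *NOS2* were not well above background on either array. Their intensities were 4.86 in HN and 2.29 in LN, 2.83 in HN and 1.41 in LN, and 1.41 in HN and 1.72 in LN, with software errors of at least 25.1% of the signal. They give no fold. The gene value of *NOS2* thus rests on 1 bright and 1 dim probe, both lower in LN (SD between probes 0.50). It was the 59th lowest of the 19554 genes, a 1.98-fold difference. With the bright probe alone it was -0.63, after the normexp background correction, which draws dim signals together, -0.36, and in the deposited normalized values, where the dim probe had a log2 LN/HN of -1.81, it was -1.21. It stayed past the threshold under each of the 11 other settings tried.

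*NOS3*, the endothelial synthase, had 2 probes that gave nearly the same difference. The probe A_73_113686 had an intensity of 1464 ± 146 in HN and 1033 ± 103 in LN. Its log2 signal was 10.54 in HN and 9.99 in LN, a log2 LN/HN of -0.55 or 1.46-fold lower. The probe A_73_P049536 had an intensity of 234 ± 23.4 in HN and 173 ± 17.4 in LN, with log2 signals of 7.88 and 7.43 and a log2 LN/HN of -0.46. The SD between the probes was 0.067, and the gene was 1.42-fold lower in LN (rank 679 from the lowest). Over the 11 other settings its log2 LN/HN stayed between -0.55 and -0.47, the normexp background correction included (-0.50). Of the measured synthases, *NOS3* thus depended less on the settings.

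**Figure D2:**
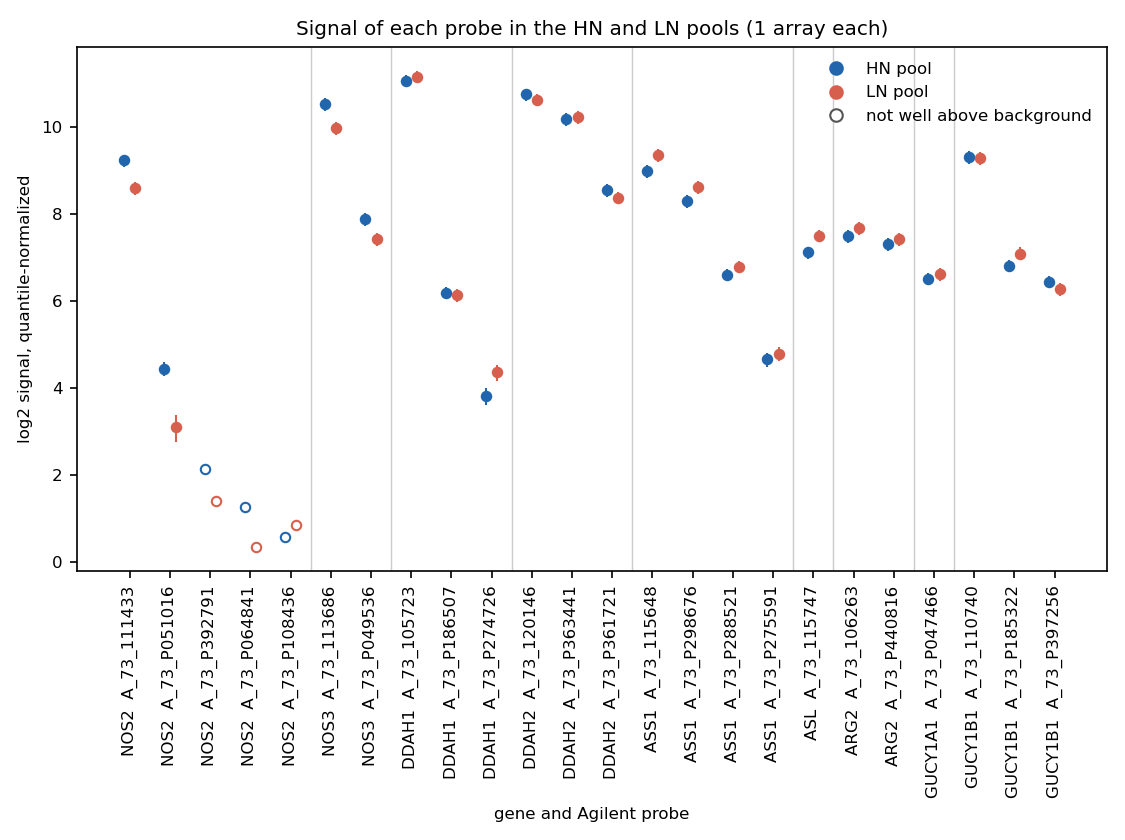
Quantile-normalized log2 signal of all 24 probes in the HN pool (blue) and the LN pool (red), grouped by gene and sorted by brightness, with bars for the software's error of the spot and open circles for probes not well above background. The HN signal lies above the LN signal for both detected probes of *NOS2* and both of *NOS3*, and below it for every probe of *ASS1*, *ASL* and *ARG2*.

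The enzymes that rebuild arginine differed in the other direction. *ASS1*, which joins citrulline to aspartate, had 4 probes, and each was higher in the LN pool. Their intensities in HN and LN were 502 ± 50.2 and 668 ± 66.8 for A_73_115648, 314 ± 31.4 and 399 ± 39.9 for A_73_P298676, 97.8 ± 9.86 and 111 ± 11.2 for A_73_P288521, and 26.0 ± 2.88 and 27.2 ± 3.09 for A_73_P275591. The log2 LN/HN was 0.37, 0.32, 0.18 and 0.13 in that order, and the first alone was past the threshold of 0.32. The gene value of 0.25 (1.19-fold higher, SD between probes 0.11) was therefore within the threshold, and it was 0.37 when the brightest probe alone was taken. *ASL*, which releases arginine from argininosuccinate, had 1 probe. Its intensity was 139 ± 14.0 in HN and 184 ± 18.5 in LN, with log2 signals of 7.12 and 7.51 and a log2 LN/HN of 0.39, or 1.31-fold higher. *ASL* has no other probe to set against it, and it came within the threshold after the normexp background correction (0.28).

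*ARG2*, the mitochondrial arginase that competes with the synthases for arginine, had 2 probes with nearly the same value. Their intensities were 180 ± 18.0 in HN and 207 ± 20.7 in LN for A_73_106263, and 158 ± 15.8 in HN and 173 ± 17.4 in LN for A_73_P440816. The log2 LN/HN was 0.18 and 0.12, so the gene was 1.11-fold higher in LN. This is within the 95% range of a single spot for the second probe and just past it for the first. *ASS1*, *ASL* and *ARG2* were higher in LN under each of the 11 other settings, and *NOS2* and *NOS3* lower. Set against *NOS3* on the same arrays, the log2 LN/HN was larger by 0.76 for *ASS1*, by 0.89 for *ASL* and by 0.65 for *ARG2*.

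The DDAH enzymes, which clear the inhibitors of NO synthases, showed no common direction among their probes. For *DDAH1*, the brightest probe (A_73_105723) had an intensity of 2127 ± 213 in HN and 2328 ± 233 in LN, a log2 LN/HN of 0.09. The probe A_73_P186507 had 73.6 ± 7.45 and 70.5 ± 7.20, a log2 LN/HN of -0.06. The probe A_73_P274726, with only 14.7 ± 1.92 and 20.1 ± 2.49, had a log2 LN/HN of 0.54 and made most of the gene value of 0.19. The SD between the 3 probes was 0.31, larger than that value, and the median of the probes was 0.09. For *DDAH2*, intensities were 1709 ± 171 in HN and 1623 ± 162 in LN for A_73_120146, 1147 ± 115 and 1227 ± 123 for A_73_P363441, and 373 ± 37.3 and 338 ± 33.9 for A_73_P361721. Their log2 LN/HN was -0.12, 0.05 and -0.17, with a gene value of -0.08 and an SD between probes of 0.11. No probe of *DDAH2* exceeded the 95% range of a single spot.

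The subunits of the NO receptor differed little between the pools. The single probe of *GUCY1A1*, the alpha subunit, had an intensity of 92.2 ± 9.32 in HN and 98.6 ± 9.98 in LN, a log2 LN/HN of 0.10. *GUCY1B1*, the beta subunit and the neighbor of *GUCY1A1* in the bovine gene table, had 3 probes. Their intensities were 628 ± 62.8 in HN and 640 ± 64.0 in LN for A_73_110740, 113 ± 11.4 and 137 ± 13.8 for A_73_P185322, and 88.0 ± 8.88 and 77.7 ± 7.91 for A_73_P397256. The log2 LN/HN was -0.02, 0.28 and -0.17, so the gene value of 0.03 averages probes of both directions (SD 0.23), and it was -0.02 with the brightest probe or the median of probes.

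**Figure D3:**
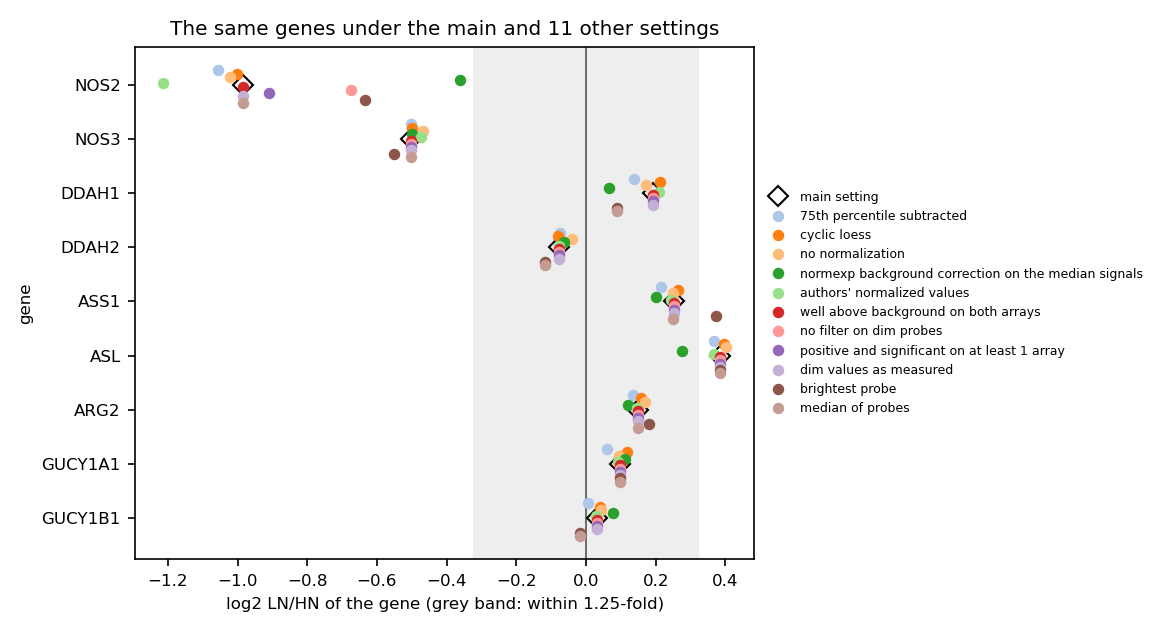
Log2 LN/HN of each gene under the main setting (black diamonds) and 11 other settings of normalization, background correction, filtering and probe summary (colored circles), with the grey band marking values within 0.32 of 0. *NOS2* spreads from -1.21 to -0.36 and *NOS3* only from -0.55 to -0.47, both left of the band, while *ASL* enters the band under 1 setting and *ASS1* leaves it under 1.

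In whole muscle, fewer cells of a type and less RNA per cell cannot be told apart, so markers of the cell types that carry these genes were set beside them. Of 17 endothelial markers with a value, 15 were lower in the LN pool, with a median log2 LN/HN of -0.25. Past the threshold were 3, all on the lower side, against 9.11% of all genes on that side. Their detected probes summed to a normalized intensity of 66723 in HN and 52757 in LN, a log2 ratio of -0.34, and no marker on the array was undetected. *SOX18* (-0.52), an endothelial transcription factor, was the only one of the 17 at or below the value of *NOS3* (-0.50), and the others past the threshold were *EGFL7* (-0.45), which encodes a protein secreted by endothelial cells, and *CLDN5* (-0.39), which encodes a tight junction protein. The remaining markers ran from -0.32 for *PECAM1* to 0.02 for *VWF* and 0.27 for *ERG*. Of the 5 probes of *VWF* with a value, a dim probe had 0.85 (log2 signals 3.81 in HN and 4.66 in LN). The rest had -0.24 to -0.13, with 1 of them not well above background in LN. *ERG* had 2 probes at -0.30 and -0.31 and 1 probe that was not well above background in HN, whose 1.41 is only a lower limit. These markers were named after their values were seen. Sums here and below weigh the brightest probes most. For endothelial cells these were a probe of *EGFL7* (log2 signal 13.95 in HN) and probes of *CLDN5* (13.77 and 13.67). Of 10 markers of smooth muscle cells and pericytes, 7 were lower (median -0.30), and the sum over the 10 went from 24647 in HN to 21260 in LN. Past the threshold were 4 on the lower and 1 on the higher side, against 9.11% and 8.85% of all genes. The higher marker was *PDGFRB* (0.49), with probes at 0.06 and 0.54. Its remaining probe was not well above background in HN, so that its 0.85 is only a lower limit. *KCNJ8*, a potassium channel gene of pericytes named after its value was seen, was at -0.54, the only one of the 10 at or below *NOS3*. *LMOD1* (0.14) and *CSPG4* (0.11) went the other way, as did *PDGFRB*, all named after their values were seen. The part of either cell type in the difference of *NOS3* was not tested, and *NOS3* is itself an endothelial gene.

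For *NOS2*, which immune cells can make, the immune markers did not move together. Of 9 macrophage markers with a value, 8 were lower in LN (median -0.24, summed intensity 10122 in HN and 8132 in LN), and 1 more, *ITGAM*, was not detected. Of 10 neutrophil markers, 7 were higher and 3 lower (median 0.72, summed intensity 3564 in HN and 6046 in LN). All 7 higher markers were past the threshold, and 1 of the 3 lower, against 8.85% and 9.11% of all genes. The higher markers detected on both arrays ran from 0.61 for *S100A12* to 1.39 for *S100A8*. *MPO* was not well above background in HN, so its 3.11 is only a lower limit. These genes were named after their values were seen. None of the 17 endothelial or 9 macrophage markers had a value as low as that of *NOS2* (-0.99). Of the neutrophil markers, *CXCR2*, named after its value was seen, was not well above background in LN, so its log2 LN/HN of -0.79 is only a lower limit of the difference and cannot be set against *NOS2*. All 10 muscle fiber markers on the array were detected, as in muscle, with a median log2 LN/HN of -0.14. Fibroblast markers were all higher (7 of 7, median 0.26). Erythroid, adipocyte and Schwann cell markers had medians of -0.16 (5 genes), 0.04 (4 genes) and 0.0029 (5 genes). The part of these cells in the difference of *NOS2* was not tested.

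**Figure D4:**
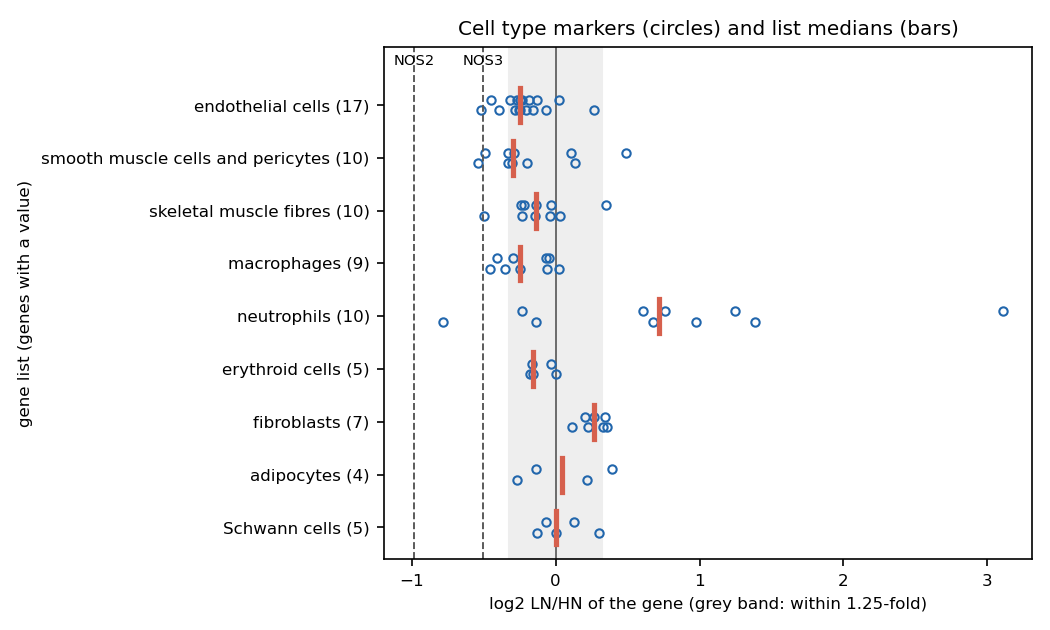
Log2 LN/HN of cell type marker genes (circles) and list medians (bars), with the number of genes with a value in brackets and dashed lines at the values of *NOS2* and *NOS3*. Endothelial, smooth muscle and macrophage medians lie between -0.30 and -0.24, right of the line of *NOS3*, and the neutrophil median lies at 0.72.

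Around the 10 genes, 9 lists of genes of the same pathways held 118 genes, of which 84 had a value. Past the threshold were 7 on the lower and 5 on the higher side, to be read against the 9.11% and 8.85% of all genes, and the median was -0.0095. The partners of the synthases and the enzymes of their cofactor tetrahydrobiopterin had 17 genes with a value, 12 lower and 5 higher, and a median of -0.05. Of the partners that bind the synthases, the caveolins are named here after their values were seen. The log2 LN/HN was -0.25 for *CAV3*, the caveolin of muscle fibers, and -0.19 for *CAV1*, the caveolin that holds NOS3 inactive (5 probes, -0.30 to -0.08).

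Downstream of the receptor, the cGMP list had 14 genes with a value, 7 lower and 7 higher, and a median of -0.03 (0.0031 without the filter on dim probes). *NPPC*, the C-type natriuretic peptide that raises cGMP through its own receptor, had 1 probe with log2 signals of 4.38 in HN and 3.61 in LN (log2 LN/HN -0.78). *IRAG1*, a target of the cGMP-dependent kinase in smooth muscle, had -0.33 from 3 probes (-0.46 to -0.20). *NPR3*, the receptor that clears natriuretic peptides, was 2.33-fold higher from 1 probe with log2 signals of 3.98 and 5.20, while its second probe was not well above background on either array. The probes of *NPPC* and *NPR3* are thus in the dim range described above, and no gene of the list was past the threshold on the lower side after normexp. The remaining genes with a value, among them the kinase *PRKG1* (-0.13), were within the threshold. *PRKG1* was named after its value was seen.

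Transport and disposal of arginine were only in part measured. Of the cationic amino acid transporters, 4 had a value and 1 was past the threshold. This was *SLC3A2*, the heavy chain shared by several amino acid transporters, at 0.64 from 2 probes (0.45 and 0.83). *SLC7A1*, a main arginine carrier named here after its values were seen, had 1 probe that was not well above background on either array. In the urea cycle list, 4 genes had a value, with a median of -0.16 that turned to 0.06 without the filter on dim probes. *CPS1*, which starts the cycle, had -0.43 from 1 of its 3 probes, with log2 signals of 4.85 and 4.41, and no gene of this list was past the threshold after normexp or in the deposited normalized values. *ARG1*, the cytosolic arginase, was named after its probes were seen. Of its 4 probes 3 were not well above background on either array, and the other had log2 signals of 13.00 in HN and 12.82 in LN. Whether that probe reads *ARG1* is unknown here, because no probe sequences were used.

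Ornithine, which arginase makes, feeds polyamines and proline. The polyamine list had 13 genes with a value, 5 lower and 8 higher, with a median of 0.06. Only *ATP13A2*, a lysosomal polyamine exporter, was past the threshold (-0.42). It was at least 1.34-fold lower, because 1 of its 2 probes was not well above background in LN and the other had -0.21. No gene of the list was past the threshold on the lower side after normexp, in the deposited normalized values, with detection required on both arrays, or with the brightest probe. *ODC1*, the first enzyme of polyamine synthesis, had 0.10 from 4 probes (0.05 to 0.16) and was named after its values were seen. Of 11 genes that join ornithine to proline, glutamate and glutamine, 4 were lower and 7 higher (median 0.0082). *PYCR1*, which makes proline in mitochondria, had a log2 LN/HN of 0.48, from 1 bright probe at 1.13 and 1 dim probe at -0.16. *GLS2*, a glutaminase, had 0.42 from 1 detected probe of 3, with log2 signals of 4.39 and 4.81. Only 1 gene of this list was past the threshold on the higher side with the 75th percentile or after normexp.

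In the creatine list, none of 3 genes was past the threshold, with *SLC6A8*, the creatine transporter, at -0.28 and *GAMT*, the last enzyme of creatine synthesis, at 0.20 from 2 probes. Among 8 genes of arginine methylation with a value none was past the threshold, and values ran from -0.08 for *PRMT6* to 0.27 for *NDUFAF7*, both methyltransferases. Of 10 genes whose products bind, oxidize or release NO, 8 were lower in LN and 3 of these past the threshold, against 9.11% of all genes. This count was 2 without normalization, after normexp, in the deposited normalized values and with the brightest probe, and 4 with the 75th percentile. *CYGB*, a globin that removes NO, had -0.44 from 2 probes that both gave -0.44. *MB*, the myoglobin of muscle fibers, had -0.37 from probes at -0.42 and -0.31, with log2 signals up to 17.02. *TXN*, the reductant thioredoxin, had -0.33 from 1 probe. The median of this list was -0.17 and stayed below 0 under each of the 11 other settings.

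**Figure D5:**
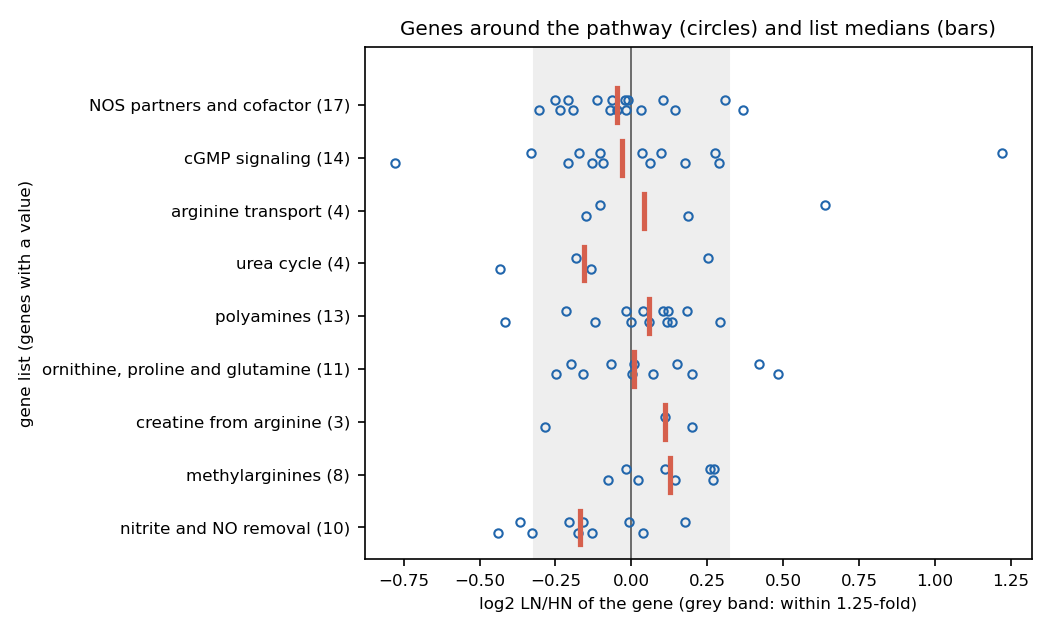
Log2 LN/HN of the genes of 9 hand-written pathway lists (circles) and the median of each list (bars), with the number of genes with a value in brackets and the grey band marking values within 0.32 of 0. Most genes lie in the band, *NPR3* (1.22) lies farthest right and *NPPC* (-0.78) farthest left.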

How the data were processed

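The authors deposited, per the file headers, spot intensities of 2 Agilent Bovine (v2) arrays read with Feature Extraction 11.0.1.1, as background-corrected signals not normalized between arrays, with an error and flags (0 or 1) for each spot. Log2 values of 30027 probes were also deposited by the authors, who normalized them with the quantile method of GeneSpring GX. Their log base is judged from their range. The median of these values was 8.03 on both arrays, and across probes their Pearson correlation with the log2 intensities was 0.9995 (HN) and 0.9996 (LN).

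Here, log2 intensities of the 43803 non-control spots were quantile-normalized (limma 3.58.1, R 4.3.3). The 13 spots with an outlier flag, none of a member, were removed, no spot was saturated, and repeated spots were averaged for each probe. Of 32775 probes well above background on 1 or both arrays, 31986 had a value. The limit for an array was its lowest signal well above background (log2 2.27 for HN, 2.82 for LN). A signal not well above background on the other array was raised to the limit there if it lay below it, and was otherwise kept. Such a fold is treated as a lower limit, and the probe got no value where its detected side was not above the value used. A gene's value is the mean over its probes. Accessions of 26742 probes were matched to symbols with a gene table made on assembly ARS-UCD2.0, which is not the assembly of the array design, so no coordinates are given. Genes named are the members, the pathway genes past the threshold, and in lists without any the farthest gene each way. Individual values of some pathway genes are not reported here. Python 3.11.15, numpy 2.4.6, pandas 2.3.3 and matplotlib 3.10.9 were used, and the steps were tested on simulated data. The members and lists were chosen with earlier results of these data known. *NOS2* and *NOS3* were singled out by the study on these same arrays, so that their direction here is no independent evidence. The study also measured both by PCR in individual fetuses and reported both lower in LN. Its PCR tests took their direction from the arrays, and the PCR values were not analysed here. The number of arrays limits the precision, and the arrays give no spread between fetuses. Results were recomputed under 11 other settings. One of these, the normexp background correction (offset 50), used median spot signals and was chosen after seeing the columns of the files.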

Additional observations from a re-analysis of the deposited data

How the results depend on the processing

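Over the 11 other settings, the count of member genes past the threshold of 0.32 on the lower side (2) did not change, and that of higher genes (1) was 0 after the normexp background correction and 2 with the brightest probe of each gene. The count of member probes past it on the higher side (3) was 1 after normexp. Over the pathway lists (7 lower and 5 higher), the counts were 11 and 3 when the 75th percentile was subtracted, 2 and 3 after normexp, 11 and 11 without a filter on dim probes, and 14 and 10 with the looser scanner flag for positive and significant signals. The lower count was 4 in the authors' normalized values. The shares of all genes past the threshold (9.11% lower and 8.85% higher) were 13.6% and 6.0% with the 75th percentile, 2.0% and 1.62% after normexp, 13.4% and 12.2% without the filter, 16.0% and 13.2% with the looser flag, 8.64% and 7.72% in the authors' values and 9.19% and 8.73% with the brightest probe. No setting turned the direction of *NOS2*, *NOS3*, *ASS1*, *ASL*, *ARG2*, *DDAH1*, *DDAH2* or *GUCY1A1*, whereas *GUCY1B1* was at -0.02 under 2 settings. The median of the arginine transport list, 0.04, was -0.04 with the 75th percentile, 0.19 without the filter and 0.28 with the looser flag. Without the filter or with the looser flag, the higher count of this list was 3 instead of 1. The cause of these changes was not tested. The normexp correction on mean signals was not run, because the files used here give median signals. No paired analysis was possible because each group has 1 array. Signal over background limits *NOS2* most, with 3 of 5 probes not well above it.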
